A study of Mus musculus with 16 samples.

Results

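The genes described here encode the proteins of the mitochondrial ribosome. They were taken from the table by symbol, as every gene whose name starts with Mrpl or Mrps followed by a digit, and each gene was read from its transcript with the highest total count over the 16 libraries. This gave 78 members among 22392 genes, and all 78 had enough counts to be tested in every comparison. By their place in mammalian structures, 51 members belong to the large subunit and 26 to the small subunit. The remaining member, Mrps36, is kept by its name, although its protein is known as a subunit of the 2-oxoglutarate dehydrogenase complex.

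The mitochondrial ribosome translates the few mRNAs encoded by mitochondrial DNA, all of which specify subunits of the respiratory chain and the ATP synthase. Its rRNAs are made inside mitochondria, whereas all of its proteins are encoded in the nucleus, translated by cytosolic ribosomes and imported. Liver cells are rich in mitochondria, and a mitochondrial ribosome needs each of its proteins alongside the others.

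Ribo-seq, which counts ribosome-protected mRNA fragments (footprints), and RNA-seq of the same lysates were available for WT Hepa1-6 cells, a mouse hepatoma line, and for 3 exon 5 KO clones of Eef1d, named KO1, KO2 and KO3. Eef1d encodes a subunit of the EEF1B complex, which reloads the elongation factor that brings aminoacyl-tRNA to cytosolic ribosomes. The clones carry a homozygous in-frame deletion of exon 5 made with Cas9 and flanking guides, whereas WT cells do not. The same guide pair was used for KO1 and KO2, and another pair for KO3. Each clone grew from a single cell, so every genotype comparison sets 1 clone against WT cells, and the deletion cannot be told apart from other features of that clone. Each line had 2 replicates in each assay, which makes 16 libraries, and p-values measure only the spread between these replicates. The labels name polyA RNA for RNA-seq while the protocol describes rRNA depletion, and this was not settled here.

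Deletion of exon 5 was visible in the counts. The Eef1d transcript with exon 5 had 116% of the counts of the transcript without it in both WT RNA-seq libraries. In the 6 clone libraries it had from 89.8% to 92.6%. These counts cover the whole coding sequence, including exons that both transcripts share. The percentage is therefore not the amount of RNA that retains exon 5. With 1 transcript per gene, RNA-seq libraries held from 10493030 to 12946819 counts and Ribo-seq libraries from 1138943 to 4886753. The smallest count of any member was 75 in RNA-seq and 15 in Ribo-seq, the latter in KO1 replicate 2, the smallest Ribo-seq library. Of 12 hepatocyte markers, 7 had at least 100 counts in every RNA-seq library, and none was at 0 in all of them. Apoh and Serpina1a had at most 3 counts in a library, and Apoa1 and Ttr at most 14. Of 7 fibroblast markers, 1 had at least 100 counts in every RNA-seq library. It was Dcn, with from 8700 to 13863 counts, where Alb had from 2922 to 22982. None of 7 blood and immune markers and 5 endothelial markers reached 100 counts in every library. The summed level of the hepatocyte markers was from 2440 to 2621 CPM in WT cells and from 999 to 1004 CPM in KO1. It was from 1913 to 2035 CPM in KO2 and from 3546 to 3713 CPM in KO3. The part of this difference in the results below was not tested.

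The members together took from 0.414% to 0.453% of the counts in the RNA-seq libraries and from 0.460% to 0.496% in the Ribo-seq libraries. Levels were compared as RPKM, that is, normalized counts per kilobase of counted coding sequence. The median RNA level of the members in WT cells was 88.4 RPKM, against 36.9 RPKM over the 8205 genes with at least 50 RNA counts and 10 footprint counts in every library. The cytosolic ribosomal proteins had a median of 2465 RPKM, and subunits of the respiratory chain had a median of 258 RPKM. Here and below, the list of the respiratory chain also holds the Atp5 genes of the ATP synthase and Ndufb1-ps.

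Although the proteins are needed side by side, the RNA levels of the members spanned 23.5-fold in WT cells. Mrps21, a small subunit protein, had the highest RNA level, with 396 and 395 RPKM in the 2 WT libraries. Mrpl51 followed with 317 and 308 RPKM, and Mrpl12, the stalk protein related to bacterial L7/L12, with 304 and 288 RPKM. Each of these had the same rank in both libraries. After them came Mrpl13, with 262 and 245 RPKM, and Mrps14, with 240 and 235 RPKM. At the low end, Mrps31 had 17.5 and 16.1 RPKM, Mrpl41 had 19.8 and 23.7 RPKM, and Mrpl1, the L1 stalk protein, had 21.1 and 23.7 RPKM. Mrpl41 and Mrpl1 could not be ordered within their replicates. Mrps27, with pentatricopeptide repeats, followed with 28.8 and 29.0 RPKM, and Mrps22 with 32.2 and 36.5 RPKM.

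Footprint levels were less spread than RNA levels. They spanned 12.9-fold, from 26.8 to 346 RPKM, and across the 78 members the log2 RNA and footprint levels correlated with a Pearson r of 0.82, where both readouts come from the same lysates. TE, the log2 ratio of the normalized footprint count to the normalized RNA count of a gene, had a median of 0.25 over the members in WT cells and of -0.14 over all genes. The TE of 57 of the 78 members was above the median of all genes. Cytosolic ribosomal proteins had a median TE of -0.33 and respiratory chain subunits one of 0.41. Across the 78 members the TE of the 2 WT replicates correlated with a Pearson r of 0.93, on the same transcripts.

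**Figure D1:**
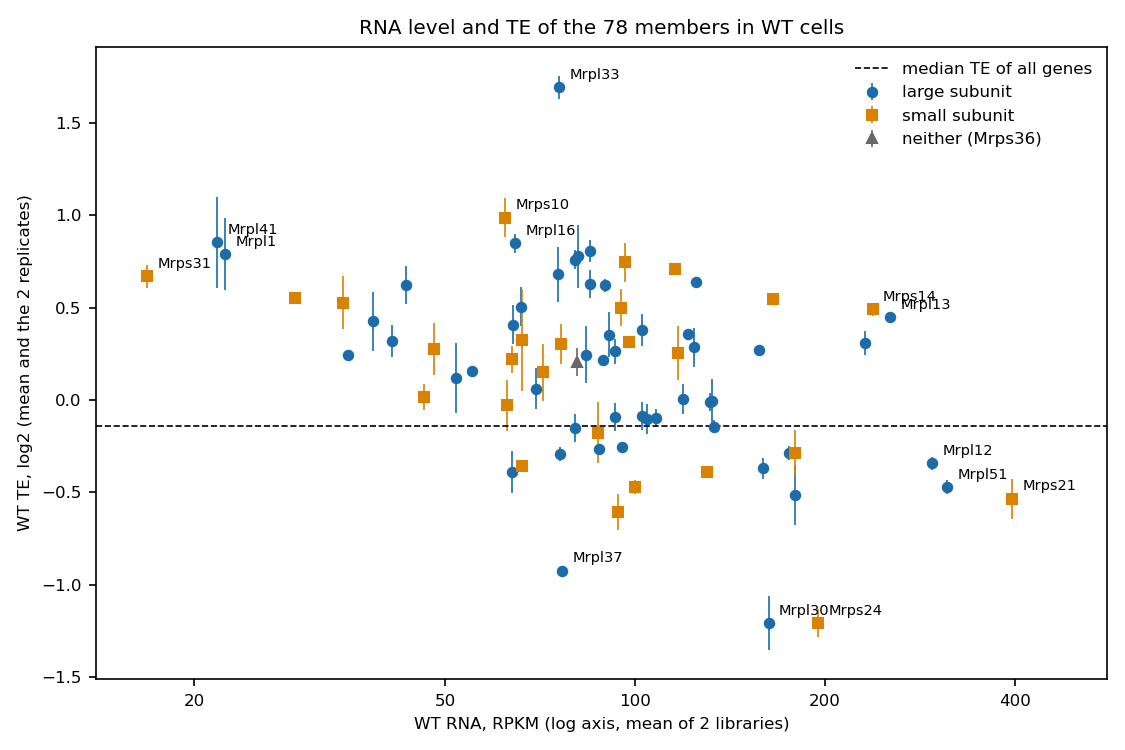
RNA level (RPKM, log axis) and TE (log2) of each member in WT cells, with the mean of 2 replicates as a point, the 2 TE replicates as the ends of each vertical line, and the subunit as symbol and colour. The dashed line is the median TE of all genes (-0.14), and the 3 members lowest in TE, Mrpl30, Mrps24 and Mrpl37, lie apart from the other members.

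Some members differed widely from the family in TE. Mrpl33, a short protein of the large subunit, had the highest TE, 1.63 and 1.76 in the 2 WT replicates, and 148 bases of its coding sequence overlap an exon of Gm43809 on the same strand. Mrps10 followed with 0.88 and 1.09, and Mrpl41 with 1.10 and 0.61. Replicates of Mrps10 and Mrpl41 overlapped, so that these neighbours are not distinguished. The TE of Mrpl16 was 0.80 and 0.90, and that of Mrpl50 was 0.87 and 0.75.

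The lowest TE belonged to Mrpl30 and Mrps24. Mrpl30, a large subunit protein, had -1.36 and -1.06, and Mrps24, a small subunit protein, had -1.28 and -1.13, so this pair could not be ordered. Mrpl37 came next, with -0.93 and -0.91, and then Mrps23 with -0.70 and -0.51. The TE of Mrps21, the member with the most RNA, was -0.42 and -0.64. The median TE was 0.25 in the large and 0.27 in the small subunit. Across the members TE and RNA level correlated with a Pearson r of -0.43, but the RNA count enters both. The choice of transcript matters for some of these values, because other transcripts of Mrps23 had TE from -0.62 to 0.25 and an NMD transcript of Mrpl33 had 3.94.

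The sequence around the start codon was read for the 4 members highest and the 3 lowest in TE. Capitals mark the annotated start codon, and the build is GRCm38. The contexts come from the GENCODE vM21 transcripts.
Mrpl33: aatcggtggaccATGctgctc
Mrps10: cagggcaccaagATGgcggcg
Mrpl41: ccagagcccagcATGggtttc
Mrpl16: acacgcgtggccATGtggagg
Mrpl30: attcccacccccATGgctggg
Mrps24: cgccggcccaagATGgcgtgg
Mrpl37: aacggagtcggtATGgccttg
The start codons lie at chr5:31614001-31614003 for Mrpl33, chr17:47368907-47368909 for Mrps10, chr19:11770470-11770472 for Mrpl16 and chr1:37893965-37893967 for Mrpl30, all on the plus strand. Those of Mrpl41, at chr2:24974656-24974658, Mrps24, at chr11:5707660-5707662, and Mrpl37, at chr4:107066793-107066795, are on the minus strand. Mrpl30 has a pyrimidine 3 bases before the start codon, where 74 of the 78 members have a purine. So do 88.2% of 7999 genes at the expression limits used for the WT levels. The other members with a pyrimidine there were Mrpl14, Mrpl3 and Mrpl2, with mean WT TE of 0.38, 0.33 and -0.39. The relation of this base to TE was not tested.

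Of the 78 members, 52 (66.7%) had both a purine 3 bases before the ATG and a G right after it, against 48.4% of all genes at the same expression limits. Their 5′ UTRs were short, with a median of 85 bases against 160, and 29 members (37.2%) had an upstream ATG, against 46.8% of 8119 genes. Differences in TE by these features were small and were not tested. The median TE was 0.27 with an upstream ATG and 0.25 without one. It was 0.22 in the 52 members with both favourable bases and 0.31 in the other 26.

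The clones were then compared with WT cells, first for RNA. In KO1, 31 of the 78 members passed the test (edgeR's quasi-likelihood test, adjusted p under 0.05), 14 of them higher and 17 lower than in WT cells. This is 39.7% of the members, where 46.7% of all genes tested passed (22.1% higher and 24.6% lower). In KO2, 5 members passed, 3 higher and 2 lower, which is 6.41%, against 20.4% of all genes (11.6% higher and 8.84% lower). In KO3, 28 members passed, 9 higher and 19 lower, which is 35.9%, against 45.4% of all genes (23.1% higher and 22.3% lower). The share called was thus below the background in each clone, a difference that was not tested. The median RNA change of the members was 0.04, -0.04 and -0.06 on the log2 scale. Medians over all genes were 0.00 in each clone. Of the 51 large subunit members 19, 1 and 20 were called in KO1, KO2 and KO3, and of the 26 small subunit members 12, 4 and 7. Without WT replicate 1 the counts were 18, 3 and 16, and without WT replicate 2 KO2 had 2. DESeq2 called 15, 3 and 15 members. The shares of all genes above are those of edgeR with all libraries, and none is given for these alternatives.

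The Ribo-seq libraries were shallower. In KO1, 20 members passed, 6 higher and 14 lower, where 26.9% of all genes passed (11.7% higher and 15.2% lower). In KO2, 6 members passed, 5 higher and 1 lower, against 11.7% of all genes (6.74% higher and 4.96% lower). In KO3, 17 members passed, 7 higher and 10 lower, against 30.6% (14.9% higher and 15.7% lower). Median footprint changes were -0.03, 0.01 and -0.09 on the log2 scale. Without WT replicate 1, 9 members passed in KO1 and 9 in KO3, and without KO1 replicate 1, 8 passed in KO1. DESeq2 called 2, 0 and 5, and its share of all genes is not given here.

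Some of the members that changed in a clone lay on a few chromosomes. They held 11 of the 31 RNA calls in KO1, whereas in KO2 they held 2 of 5 and in KO3 they held 5 of 28. This was noticed after the values were seen, as was the limit of 0.25 on the size of a chromosome median used below, and is given as a description. In KO1, the median RNA change of the other genes was -0.44 on chromosome 7, -0.36 on chromosome 9 and -0.33 on chromosome 16, while on the other chromosomes it was between -0.18 and 0.15. All 12 members on chromosomes 7, 9 and 16 had less RNA in KO1 than in WT cells. Of them, 11 passed the test, where 24.6% of all genes were called lower. Of the other genes on these 3 chromosomes, 88.0%, 83.7% and 85.2% also had less RNA in KO1. The share of these other genes that passed was not counted. The footprints of the 12 members were lower as well, and all 12 passed, against 15.2% of all genes. Without WT replicate 1, 5 of the 12 passed for footprints, and without KO1 replicate 1, 4 passed. The median change of these 12 members was -0.54 for RNA and -0.57 for footprints. Among the other 66 members, 14 were called higher and 6 lower for RNA in KO1, with a median change of 0.07.

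The chromosomes were others in KO2 and KO3. In KO2, the other genes of chromosome 1 had a median RNA change of 0.28, and those of chromosomes 8 and 10 had 0.26 and -0.26. Of the other genes of chromosome 1, only 13.4% had less RNA in KO2 than in WT cells. All 5 members on chromosome 1, Mrpl15, Mrpl30, Mrps14, Mrpl44 and Mrps9, had more RNA and more footprints in KO2, and 2 passed for RNA and 5 for footprints, where 11.6% and 6.74% of all genes were called higher. These 5 were all of the members with a higher footprint call in KO2. None of the 2 members on chromosome 8 and the 2 on chromosome 10 was called, and of the other 69 members 1 was called higher and 2 lower for RNA. In KO3, the other genes of chromosome 6 had a median RNA change of -0.32, and 81.7% of them had less RNA than in WT cells. All 7 members on chromosome 6 had less RNA and fewer footprints, and 5 passed for RNA and 3 for footprints, against 22.3% and 15.7% of all genes called lower. Without WT replicate 1 or without KO3 replicate 1, 1 of them passed for footprints, and without WT replicate 2, 3 passed for RNA. Among the other 71 members, 9 were called higher and 14 lower for RNA in KO3. Chromosomes 12 and 18, with medians of 0.33 and 0.32 in KO3, hold no members. With any 1 library left out, all 12 members on chromosomes 7, 9 and 16 stayed below WT cells in KO1 in both readouts, and so did all 7 members on chromosome 6 in KO3. In KO2 the 7 members on chromosomes 1 and 8 stayed above WT cells in RNA, with from 1 to 3 called, but 1 of them was below WT cells in footprints without WT replicate 2 and without KO2 replicate 1.

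**Figure D2:**
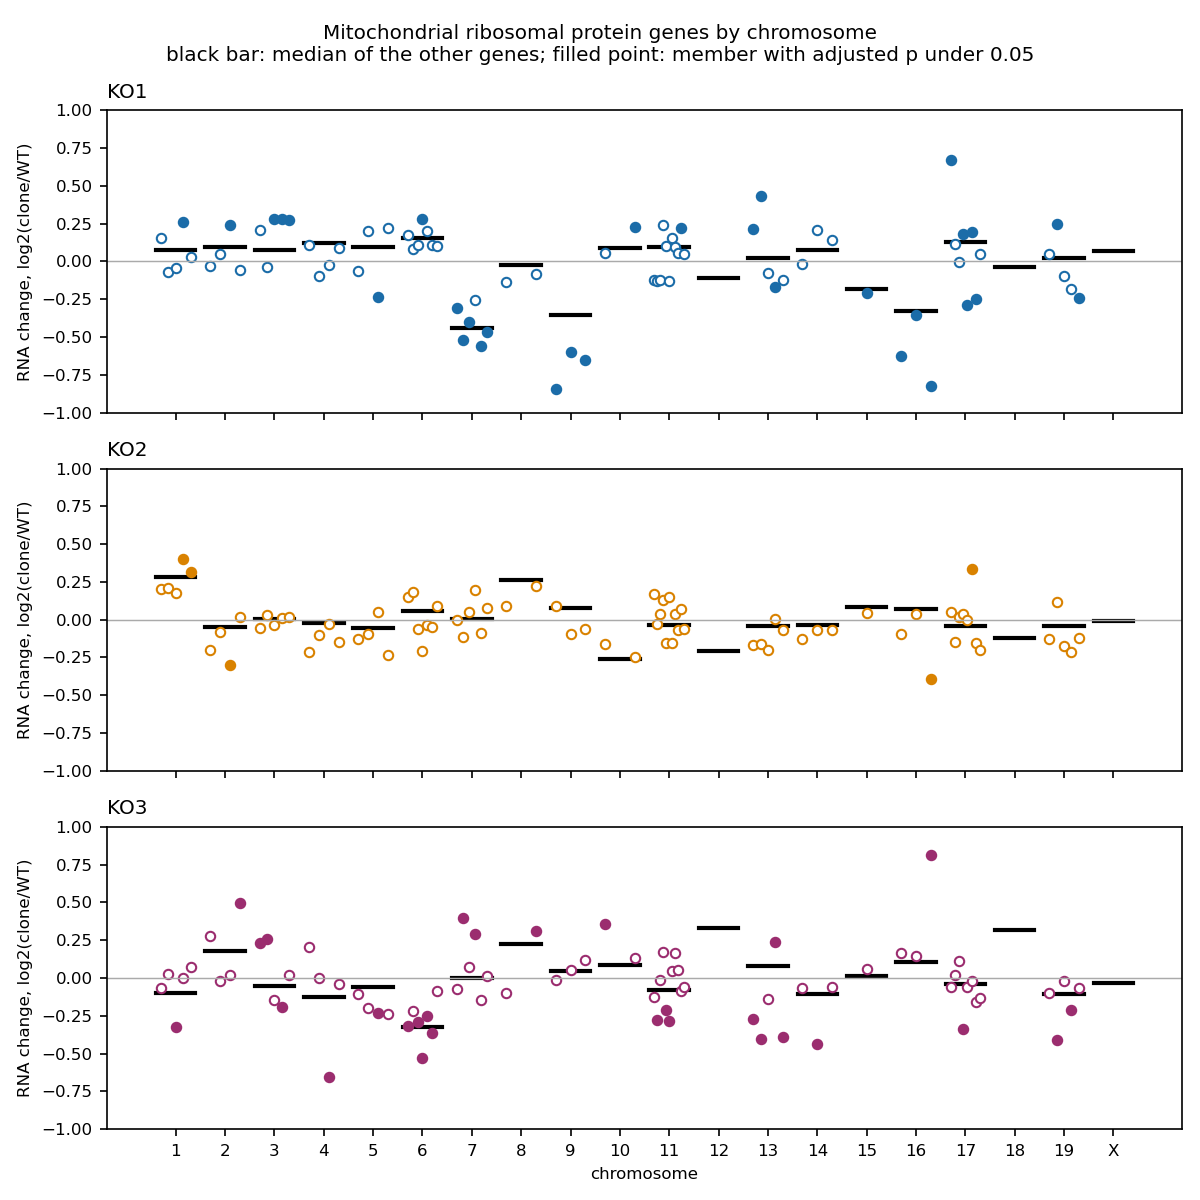
RNA change of each member (log2, clone against WT) by chromosome in KO1, KO2 and KO3, with filled points for members that passed the test (edgeR adjusted p under 0.05) and a black bar for the median change of all other genes on that chromosome. Members on chromosomes 7, 9 and 16 in KO1, 1 in KO2 and 6 in KO3 lie on the same side of 0 as the bar.

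Across the members, the RNA change and the median of the other genes on the same chromosome correlated with a Pearson r of 0.77, 0.56 and 0.49 in the 3 clones. For footprints r was 0.73, 0.60 and 0.47, and for TE it was -0.21, -0.08 and -0.18. The rank correlation (Spearman) was 0.49, 0.48 and 0.46 for RNA and 0.40, 0.44 and 0.38 for footprints. Both sides of each correlation come from the same libraries. With library totals and TMM factors taken within each chromosome, a scaling chosen after seeing the data, 21, 2 and 19 members passed for RNA. For footprints the counts fell to 9, 1 and 10. The shares of all genes called with this scaling are not given here, so a fall particular to the members was not tested. What sets the chromosome medians was not tested.

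Mrps6 had the widest range over the lines. It encodes a small subunit protein and lies on chromosome 16, where its transcript spans chr16:92058270-92112227 on the plus strand. Its RNA was at 39.3 and 41.3 CPM in WT cells, 22.8 and 22.7 CPM in KO1, 31.4 and 29.6 CPM in KO2, and 71.7 and 69.2 CPM in KO3. No library of a clone overlapped with WT cells, and the order from KO1 to KO2, WT and KO3 was the same in the footprints. These were at 65.7 and 66.2 CPM in WT cells, 31.3 and 29.8 CPM in KO1, 49.5 and 45.5 CPM in KO2, and 111 and 124 CPM in KO3. The RNA change was -0.82 in KO1 (SE 0.11, edgeR adjusted p = 6.1e-09), -0.39 in KO2 (SE 0.10, edgeR adjusted p = 0.00753) and 0.82 in KO3 (SE 0.088, edgeR adjusted p = 3.57e-13). Mrps6 was thereby the only member called in all 3 clones, and it moved in opposite directions. In KO3 the other genes of chromosome 16 had a median of 0.10. The footprint changes were -1.10, -0.46 and 0.82.

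Reads on Mrps6 can be shared with its neighbours. Of its coding sequence, 185 bases overlap the coding sequence of Gm49711 on the same strand, and 45 bases overlap an exon of Slc5a3, the myo-inositol transporter. These neighbours were looked up after the values of Mrps6 were seen. The RNA of Slc5a3 changed by -0.98 in KO1 (SE 0.19, edgeR adjusted p = 2.83e-05) and by 1.64 in KO3 (SE 0.13, edgeR adjusted p = 4.63e-20), and its change of -0.39 in KO2 did not pass (edgeR adjusted p = 0.116), while its footprint change there was -0.87 and passed (edgeR adjusted p = 0.0101). Gm49711 changed in RNA by -0.92 in KO1 (edgeR adjusted p = 0.00315) and by 0.62 in KO3 (edgeR adjusted p = 0.00787), and its change of -0.11 in KO2 did not pass. The share of these neighbours in the Mrps6 counts was not tested.

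The members with the largest RNA falls in KO1 were Mrpl3, Mrps6, Mrps22, Mrpl39 and Mrpl4, all on chromosomes 9 and 16. Mrpl3, a conserved large subunit protein near the peptidyl transferase centre, had 66.4 and 67.95 CPM of RNA in WT cells and 35.5 and 39.5 CPM in KO1. This is a change of -0.84 (SE 0.089, edgeR adjusted p = 1.2e-11), with values between 63.8 and 75.5 CPM in the other clones. Mrps22, a small subunit protein also on chromosome 9, went from 33.8 and 38.4 CPM to 21.7 and 24.5 CPM, a change of -0.65 (edgeR adjusted p = 3.31e-06). Mrpl4, the third member on chromosome 9, changed by -0.60. Mrpl39 on chromosome 16 changed by -0.62 and Mrps12, the decoding centre protein on chromosome 7, by -0.47. The footprints of Mrps12 went from 36.5 and 28.5 CPM to 20.3 and 19.6 CPM, a change of -0.73 (edgeR adjusted p = 0.00148).

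Mrpl14 had the largest RNA rise in KO1. It encodes a conserved large subunit protein, on chromosome 17, and its RNA went from 42.9 and 40.8 CPM in WT cells to 70.8 and 62.6 CPM in KO1. This is a change of 0.67 (SE 0.088, edgeR adjusted p = 5.87e-09), where the other genes of chromosome 17 had a median of 0.13. In KO2 and KO3 Mrpl14 was between 39.1 and 44.5 CPM. Mrpl36, a large subunit protein on chromosome 13, rose by 0.43 in KO1 (edgeR adjusted p = 0.00099) and fell by 0.40 in KO3 (edgeR adjusted p = 0.00658). Mrpl9 rose by 0.28 in KO1, and 11 bases of its coding sequence overlap the coding sequence of Oaz3 on the other strand.

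**Figure D3:**
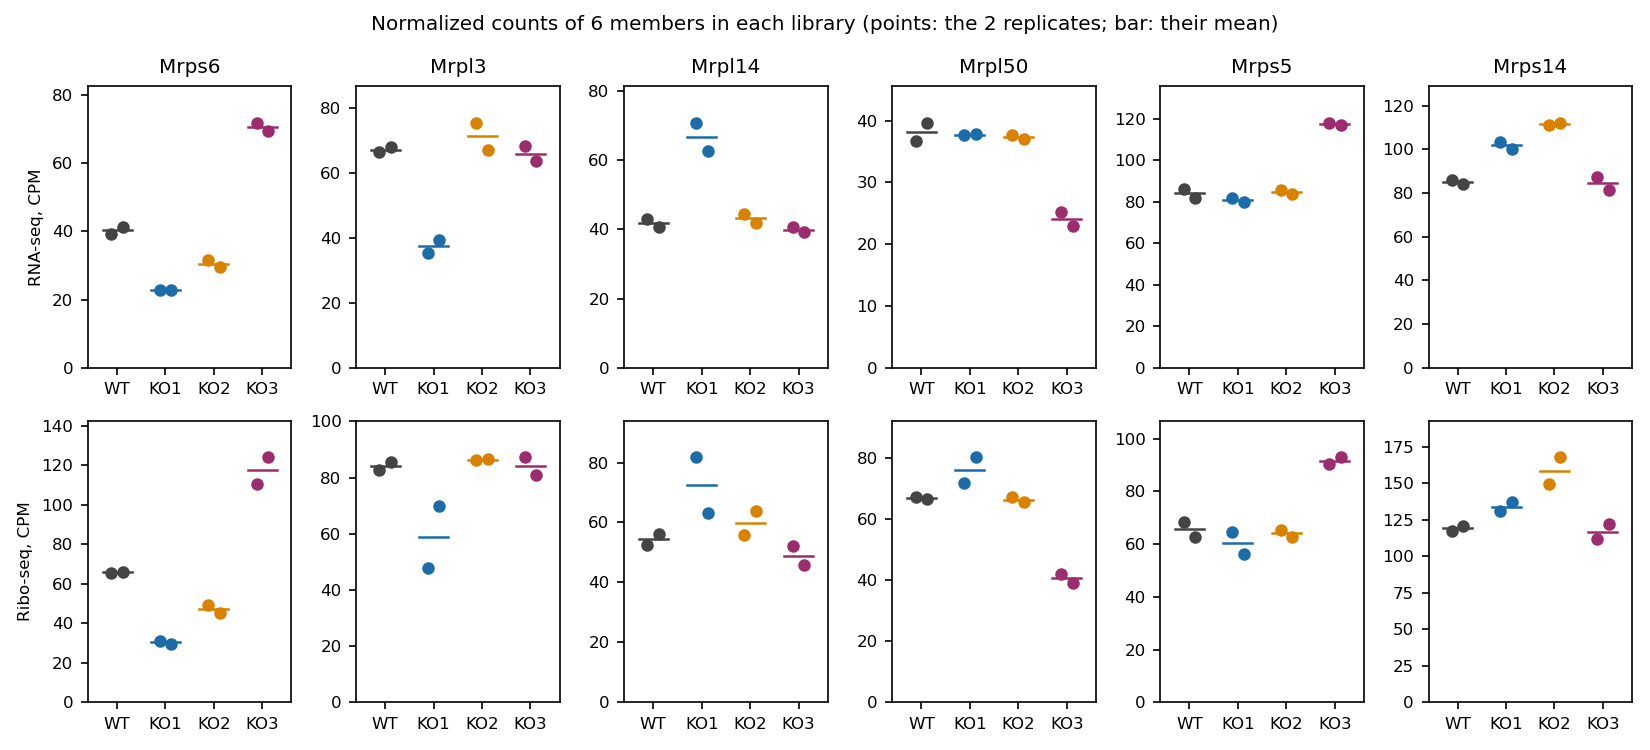
Normalized counts (CPM) of Mrps6, Mrpl3, Mrpl14, Mrpl50, Mrps5 and Mrps14 in each RNA-seq library (top) and Ribo-seq library (bottom), with the 2 replicates of a line as points and their mean as a bar. Mrpl3 and Mrpl14 depart from WT cells in KO1, Mrpl50 and Mrps5 in KO3 and Mrps14 in KO2 in both assays, and Mrps6 does so in all 3 clones. Mrps14 also lies above WT cells in KO1 in both assays, where it passed for RNA but not for footprints.

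KO2 had the fewest members called for RNA. Mrps14, a conserved small subunit protein encoded on chromosome 1, had 85.8 and 84.1 CPM of RNA in WT cells, 103 and 100.3 CPM in KO1, 111 and 112 CPM in KO2, and 87.3 and 81.4 CPM in KO3. It rose by 0.40 in KO2 (SE 0.072, edgeR adjusted p = 0.000265) and by 0.26 in KO1 (SE 0.071, edgeR adjusted p = 0.00196). Mrps18a, a paralogue placed in the large subunit despite its name, rose by 0.34 in KO2 (edgeR adjusted p = 0.00689), and Mrps9 rose by 0.32 (edgeR adjusted p = 0.0144). Mrps26 on chromosome 2 fell by 0.30 (edgeR adjusted p = 0.028), with values of 48.4 and 51.8 CPM in WT cells and 39.4 and 41.8 CPM in KO2. In KO1 the RNA of Mrps26 was called higher, with 65.5 and 53.2 CPM, and so was that of Mrps18a.

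In KO3, Mrpl50 fell the most. This large subunit protein, encoded on chromosome 4, had 36.8 and 39.6 CPM of RNA in WT cells, between 36.95 and 37.8 CPM in KO1 and KO2, and 25.3 and 22.9 CPM in KO3. The change in KO3 was -0.66 (SE 0.11, edgeR adjusted p = 3.14e-07), against a median of -0.13 over the other genes of chromosome 4. Mrpl53, on chromosome 6, fell by 0.53 (edgeR adjusted p = 5.68e-05) and Mrpl57, on chromosome 14, by 0.44 (edgeR adjusted p = 0.00533). Of the coding sequence of Mrpl53, 354 bases overlap an exon of Gm42688 on the same strand. In KO1 the RNA of Mrpl53 was called higher, with 43.7 and 37.5 CPM against 35.1 and 31.9 CPM in WT cells. Mrps5, a small subunit protein at the mRNA entry on chromosome 2, went up from 86.2 and 81.9 CPM in WT cells to 118 and 117 CPM in KO3, a rise of 0.49 (SE 0.071, edgeR adjusted p = 8.79e-09). Mrpl23, a protein at the exit of the peptide tunnel on chromosome 7, rose by 0.40 in KO3 (edgeR adjusted p = 1.8e-05) and fell by 0.52 in KO1 (edgeR adjusted p = 2.03e-06).

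For RNA, 28 members passed in no clone, 37 in 1 clone, 12 in 2 clones and 1 in all 3, and 10 of these passed in opposite directions in different clones. No member passed in the same direction in all 3 clones. Of 11281 genes tested for RNA in all 3 comparisons, 28.6% passed in no clone, 38.3% in 1, 25.2% in 2 and 7.92% in all 3, with 20.1% called in opposite directions and 1.69% in the same direction in all 3. The members' shares were 35.9%, 47.4%, 15.4% and 1.28%, with 12.8% in opposite directions. The clones share their WT libraries, and the difference from all genes was not tested. A test of whether the clones differ called 53 of the 78 members for RNA, against 74% of all genes, and 43 for footprints, against 59.5%. For the mean RNA change of the 3 clones, 7 members passed, 2 higher and 5 lower, against 18.9% of all genes (7.18% higher and 11.7% lower). These included falls of Mrpl3 (-0.26, edgeR adjusted p = 0.00769), Mrpl50 (-0.24, edgeR adjusted p = 0.042) and Mrpl4 (-0.22, edgeR adjusted p = 0.0416), of which Mrpl3 and Mrpl4 passed in KO1 alone and Mrpl50 in KO3 alone, and rises of Mrps14 (0.22, edgeR adjusted p = 0.00764) and Mrpl14 (0.22, edgeR adjusted p = 0.0406). No member passed without WT replicate 1 or without WT replicate 2, and 4 passed without KO1 replicate 2. For the mean footprint change no member passed the edgeR test, against 9.25% of all genes (2.98% higher and 6.27% lower), with 15 at an unadjusted p under 0.05. A block for the replicate number, which paired the Ribo-seq libraries, gave 2 calls, and DESeq2 gave 0 with 1 at an unadjusted p under 0.05.

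Of the members called for RNA, 16, 3 and 12 in KO1, KO2 and KO3 were also called for footprints in the same direction. This is 51.6%, 60% and 42.9% of the RNA calls and 80%, 50% and 70.6% of the footprint calls. Over all genes tested in both, the shares were 48.5%, 43.1% and 55.5% of the RNA calls and 87.5%, 77.6% and 84.6% of the footprint calls. None of the members was called in opposite directions, as were 0.0609%, 0.0465% and 0.105% of the RNA calls over all genes. Members called in RNA alone could differ in direction, as Mrps30 did in KO1. Its RNA change there was -0.17 (edgeR adjusted p = 0.035), and its footprint change of 0.12 did not pass. In KO3 its RNA was called higher. Of the coding sequence of Mrps30, 431 bases overlap the coding sequence of B430218F22Rik on the other strand. The RNA and footprint changes of the 78 members correlated with a Pearson r of 0.83, 0.71 and 0.88, where both come from the same lysates. In KO3, footprints of Mrpl50 changed by -0.72 and those of Mrps5 by 0.46, near their RNA changes. Mrpl45, which anchors the ribosome at the inner membrane, had a footprint change of -0.49 in KO3 (edgeR adjusted p = 0.000264) and an RNA change of -0.28. Mrpl16 moved in opposite directions in KO1 and KO3, with footprint changes of 0.37 (edgeR adjusted p = 0.00499) and -0.44 (edgeR adjusted p = 0.00129).

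**Figure D4:**
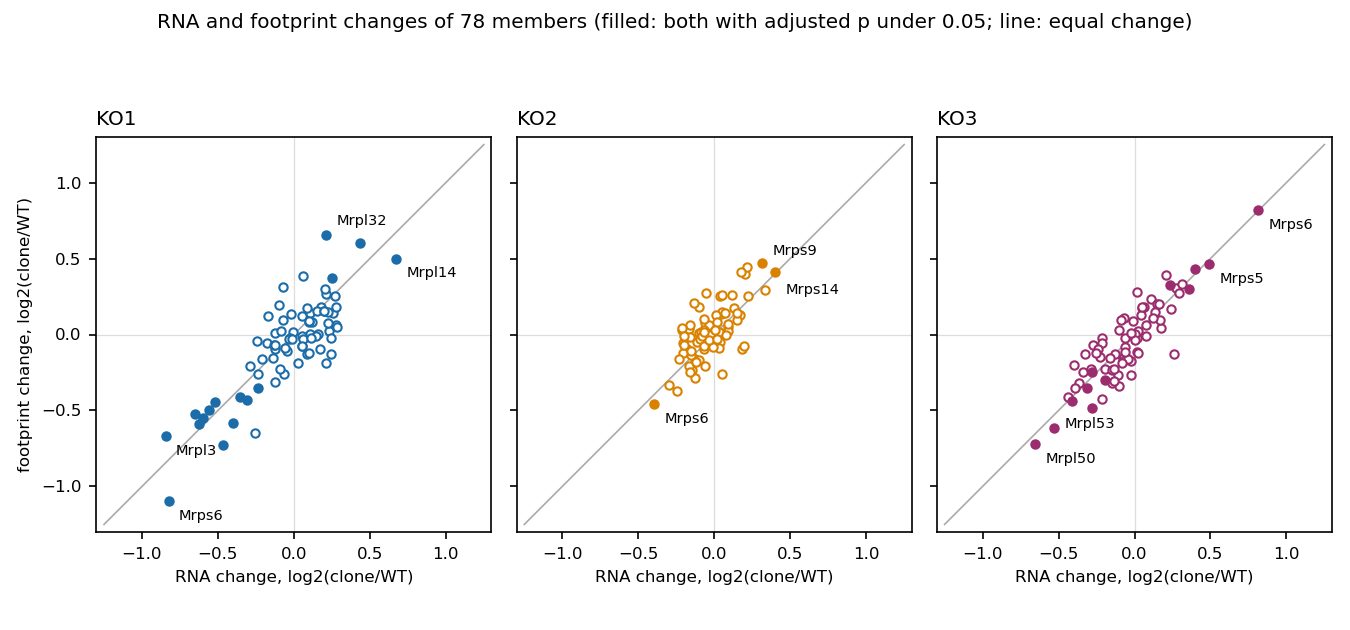
Footprint change against RNA change (both log2, clone against WT) of the 78 members in each clone, with the line of equal change. Filled points passed the test in both readouts, and there are 16, 3 and 12 of them in KO1, KO2 and KO3.

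Without a term for the lysate, no member passed for TE in any clone by edgeR. Of all genes, 0.0942% passed in KO1 (0.0428% higher and 0.0514% lower), 0.0173% in KO2, all higher, and 0.104% in KO3 (0.0432% higher and 0.0605% lower). At an unadjusted p under 0.05 there were 6, 3 and 2 members, against 7.08%, 4.28% and 6.07% of all genes, and DESeq2 gave 0 calls, with 1, 0 and 0 at that limit. With a block for the lysate, which both assays of a replicate share, edgeR called 1, 0 and 0 members, with 9, 5 and 2 at an unadjusted p under 0.05. The median TE change was -0.01, 0.03 and 0.00, and the TE change of 66, 71 and 76 members was within 0.25 of 0. The median SE of a TE change was 0.15 in each clone, which limits what could be detected. In the mean of the 3 clones and in the test between clones, 0 members passed, where 0% and 1.03% of all genes did. At an unadjusted p under 0.05 there were 1 and 5 members by edgeR, against 3.79% and 10.3% of all genes, and DESeq2 gave 0 calls, with 0 and 1 at that limit. The lysate block gave 0 calls in both, with 2 and 11 at an unadjusted p under 0.05. All percentages of all genes given for TE are from the edgeR fit without the lysate block. None is given for the block or for DESeq2, so those counts have no background here.

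Mrpl32 had the largest TE change in KO1. It encodes a large subunit protein that is trimmed by the m-AAA protease after import. Its RNA was at 48.2 and 47.6 CPM in WT cells and 53.9 and 57.4 CPM in KO1, while its footprints went from 72.5 and 74.9 CPM to 111 and 131 CPM. The footprint rise of 0.65 (SE 0.11, edgeR adjusted p = 2.61e-06) was larger than the RNA rise of 0.21 (SE 0.087, edgeR adjusted p = 0.0392). The TE change of 0.45 (95% interval from 0.19 to 0.71) did not pass over all genes (edgeR adjusted p = 0.345). With the lysate block it was 0.47 and passed (edgeR adjusted p = 0.0244), as the only member to do so in any clone. In KO2 and KO3 the TE change of Mrpl32 was 0.20 and did not pass. Its RNA was called lower in KO3, with 41.1 and 37.6 CPM.

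**Figure D5:**
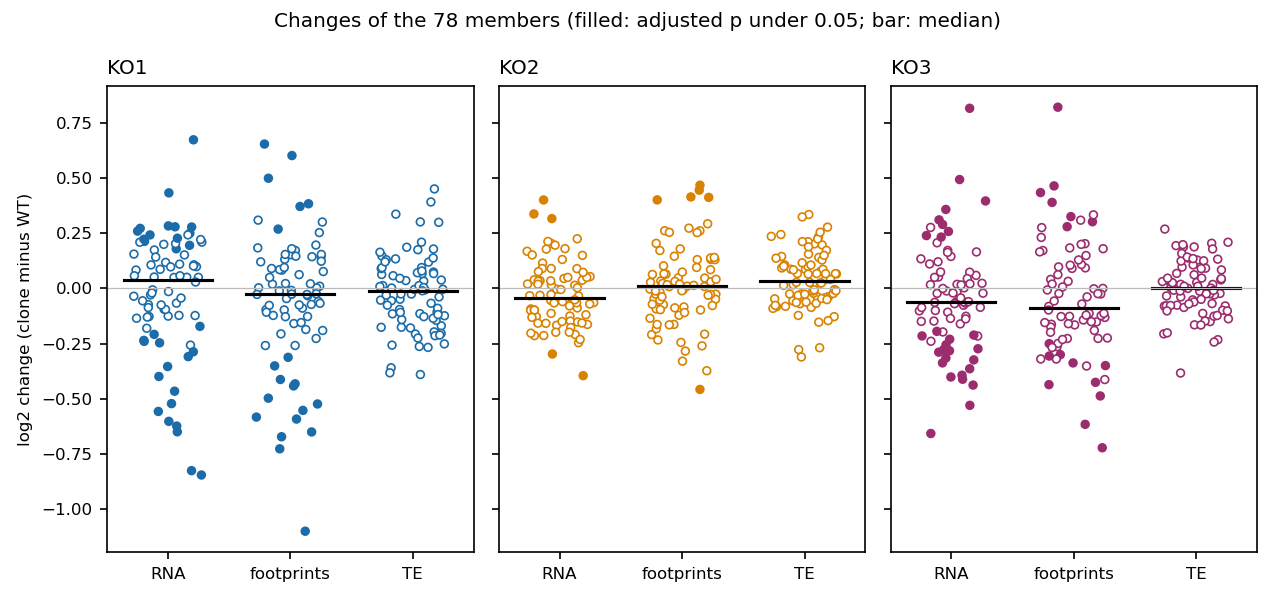
Changes (log2, clone minus WT) of the 78 members in RNA, footprints and TE for each clone, with the median as a bar and filled points for members that passed (edgeR adjusted p under 0.05, no lysate block). Filled points are present for RNA and footprints in all 3 clones and absent for TE.

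The members at the ends of the TE order in WT cells had no TE call in a clone. The TE of Mrpl30 changed by 0.39 in KO1 (95% interval from 0.07 to 0.71), 0.23 in KO2 and 0.00 in KO3, and that of Mrps24 by -0.07, 0.07 and 0.19, none of which passed. For Mrpl33, the highest in TE, the changes were 0.12, 0.07 and -0.02 in the 3 clones.

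Promoters were searched for motifs of factors known for mitochondrial genes. Of the members, 69 matched an entry of the RefSeq promoters (GRCm38.p6), which cover 250 bases before to 50 after the start. CCGGAAG, the core of sites for ETS factors such as GABP, on either strand, was present in 25 of them (36.2%), against 12.4% of all 16527 promoters and 22.7% of 6458 promoters of genes at the same expression limits. The YY1 word AAGATGGCG was in 8 (11.6%), against 2.04% and 4.18%. Before the start it was present in 2 of these 8, and in 7 of the 78 members the same letters run across the start codon, Mrps10 and Mrps24 among them. The SP1 word GGGCGG was in 33 (47.8%), against 48.3% and 70.3%. CACGTG was in 5 (7.25%), against 8.01% and 11.3%, TATAAA in 4 (5.80%), against 12.9% and 6.35%, and CCAAT in 27 (39.1%), against 38.7% and 38.6%. The NRF1 palindrome was in 3 (4.35%), against 1.40% and 2.60%, and the SREBP word TCACNCCAC in 0, against 1.18% and 1.01%. These are descriptions of letters and not of binding. For RNA, Mrpl3 and Mrps22 were called lower in KO1, Mrpl53 higher in KO1 and lower in KO3, and Mrps18a higher in KO1 and KO2. A window of each is shown with the ETS word in capitals.
Mrpl3: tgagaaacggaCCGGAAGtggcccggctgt
Mrps22: aacctctcgagCCGGAAGttgctctatcga
Mrpl53: ccgcggagccgCCGGAAGcggtccgttcca
Mrps18a: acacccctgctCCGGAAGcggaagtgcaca
In GRCm38.p6 they lie at chr9:105053238-105053267 (plus strand), chr9:98601672-98601701 (minus), chr6:83109038-83109067 (plus) and chr17:46110967-46110996 (plus). They are 4 of the 25, and the relation of the word to the changes was not tested.

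Of the regulators of mitochondrial biogenesis, 3 of 9 were called for RNA in KO1, 0 in KO2 by edgeR (2 at an unadjusted p under 0.05) and 5 in KO3, against 46.7%, 20.4% and 45.4% of all genes. Gabpa, the DNA-binding subunit of GABP, fell by 0.72 in KO1 (SE 0.087, edgeR adjusted p = 7.65e-10), and it lies on chromosome 16 as well. Ppargc1a, the coactivator PGC-1alpha, fell by 2.81 in KO3 (SE 0.32, edgeR adjusted p = 5.91e-12). The relation of these changes to the members was not tested.

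Lists of genes that work with the mitochondrial ribosome were read against the 46.7%, 20.4% and 45.4% of all genes called for RNA in KO1, KO2 and KO3. Of 5 mitochondrial ribosomal proteins under other symbols, 1, 0 (edgeR, 1 at an unadjusted p under 0.05) and 3 were called for RNA in the 3 clones, with Ptcd3, a small subunit protein on chromosome 6, falling by 0.71 in KO3 (edgeR adjusted p = 5.49e-14). Of 25 tested genes for assembly of the ribosome and modification of its rRNA, 7 were called in KO1 (28%, 1 higher, 6 lower), 1 in KO2 (4%) and 12 in KO3 (48%, 6 higher, 6 lower). Among these, Rpusd4, a pseudouridine synthase, fell by 0.75 in KO1 and Trub2, another, by 0.89 in KO3. Of 16 translation factors of mitochondria, 4, 1 and 5 were called (25%, 6.25% and 31.2%), with 3, 0 and 4 of them higher, and Tufm, the elongation factor that brings aminoacyl-tRNA to the mitochondrial ribosome, fell by 0.80 in KO1 (edgeR adjusted p = 6.88e-16). Tufm lies on chromosome 7. Of 17 mitochondrial aminoacyl-tRNA synthetases, 6, 3 and 7 were called (35.3%, 17.6% and 41.2%), with 2, 3 and 5 of them higher. None of the genes of these 4 lists passed for TE by edgeR. At an unadjusted p under 0.05 there were 2 assembly genes and 2 translation factors in KO1, 2 factors and 1 synthetase in KO2, and 1 synthetase in KO3.

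For comparison, of 78 cytosolic ribosomal protein genes, 64, 19 and 40 were called for RNA in the 3 clones, which is 82.1%, 24.4% and 51.3%, against 46.7%, 20.4% and 45.4% of all genes. Of 78 tested respiratory chain genes, 53, 14 and 37 were called, which is 67.9%, 17.9% and 47.4%. The median RNA change of the cytosolic ribosomal proteins was 0.10, -0.06 and 0.06, and that of the respiratory chain was 0.16, -0.03 and -0.01. Differences between the lists were not tested.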

How the data were processed

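The deposited table holds raw counts for 67139 transcripts in 16 columns, 1 per library. Per the study's methods, the authors trimmed reads with fastp 0.21.0, aligned them with STAR 2.7.0a to mm10 and counted reads whose A-site fell in the coding sequence, leaving out 5 codons at each end. The use of strand in counting is not given in the sources used here, so genes that overlap can share counts.

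From these counts, 1 transcript per gene was kept for 22392 genes, the first listed where totals tied. Genotypes were compared within each assay by edgeR's quasi-likelihood test (edgeR 4.0.16, limma 3.58.1, R 4.3.3) on the 4 libraries of a clone and WT, with filterByExpr, TMM and Benjamini-Hochberg adjustment over all genes tested, called at 0.05. TE changes are the interaction of genotype and assay over the 8 libraries, with TMM within each assay. DESeq2 1.42.0 was an alternative. CPM values are TMM-scaled. The fits were tested on simulated data. Intervals for TE changes are 95% intervals from the fit. Positions come from GENCODE vM21 and promoters from RefSeq.

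Members and lists were chosen with earlier results of these data known. The named members are, per readout and clone, up to 3 rises and 3 falls among those called without overlap of replicates, with the same for the mean of the clones, the 6 with the smallest p between clones, the 5 highest and lowest in WT RNA level, footprint level and TE, and members with a known place in the ribosome. Other named genes were chosen after their values were seen.

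Over 2180 genes, both assays of a lysate deviated together (r from 0.151 to 0.359 over 4 lines), and so did Ribo-seq libraries with the same replicate number (r from 0.160 to 0.248 over 6 pairs of lines). RNA-seq libraries with the same number did not all do so (r from -0.0639 to 0.460).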

Additional observations from a re-analysis of the deposited data

Results flagged for a closer look

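Effects against WT differed between the clones for 53 members in RNA and for 43 in footprints, by edgeR's test of the difference between the 3 clones, where 74% and 59.5% of all genes passed. The clones share the WT libraries, and all 3 are single-cell clones. For RNA the smallest adjusted p (edgeR) was that of Mrps6, 1.85e-17, followed by Mrpl3 with 3.15e-11, Mrpl23 with 6.68e-11, Mrpl39 with 3.96e-09, Mrpl14 with 5.9e-09 and Mrps5 with 1.37e-08. For footprints it was again that of Mrps6, 2.1e-18, followed by Mrpl16 with 7.07e-09, Mrpl50 with 5.12e-08, Mrpl23 with 6.08e-08, Mrpl32 with 2e-07 and Mrpl3 with 2.53e-06. Of these, Mrps6, Mrpl3, Mrpl23 and Mrpl39 lie on chromosomes 7, 9 and 16, where the other genes had less RNA in KO1. Whether the 2 are linked was not tested.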

How the results depend on the processing

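Leaving out 1 library in turn, members called for RNA ranged from 18 to 29 in KO1, from 2 to 7 in KO2, from 16 to 26 in KO3, from 0 to 10 for the mean of the clones and from 47 to 56 between clones. For footprints they ranged from 8 to 19, from 4 to 8 and from 9 to 16 in the 3 clones and from 36 to 42 between clones, with 0 for the mean, and for TE they were 0 throughout. DESeq2 called 15, 3 and 15 members for RNA, 2 for the mean, 2, 0 and 5 for footprints and 25 between clones for footprints. Shares of all genes called are not given for the settings compared here, so these counts describe the members without a background. At an adjusted p under 0.1, KO2 had 8 RNA calls, the mean 12 for RNA and 2 for footprints. With a replicate block, KO2 had 8 RNA calls, the mean had 11 for RNA and 2 for footprints, and no other count moved by over 1.5 times. RNA-seq libraries with the same replicate number did not all deviate together (r from -0.0639 to 0.460 over 6 pairs of lines). A lysate block gave 1 TE call in KO1, Mrpl32. With libraries thinned to the smallest, KO1 had 10 footprint calls. Scaled within chromosomes, chosen after seeing the data, KO2 had 2 RNA calls and the mean 1, and footprint calls were 9, 1 and 10 in the clones and 26 between them. There the changes of Mrpl17 for RNA in KO1 (0.1326, scaled within chromosomes) and for footprints in KO1 (0.0042) reversed from falls. So did those of Mrpl46 for RNA in KO1 (0.0417) and of Mrpl51 for RNA in KO3 (0.0377). Mrpl17 and Mrpl46 lie on chromosome 7 (median RNA change of the other genes -0.44 in KO1) and Mrpl51 on chromosome 6 (-0.32 in KO3). This scaling takes out the shift common to a chromosome, and what sets that shift was not tested. Of 2347 alternative values for single members, 2023 kept their direction and side of the threshold and 320 only their direction. KO1 Ribo-seq replicate 2 had the lowest depth, a median of 67.5 counts per member, which limits footprint and TE changes in KO1.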

Other observations

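Of 8 genes for mitochondrial DNA and its transcription, 5 were called for RNA in KO1 (2 higher and 3 lower), 2 in KO2 (1 higher and 1 lower) and 2 in KO3, both lower, by edgeR's test, against 46.7%, 20.4% and 45.4% of all genes. Across the members, shorter coding sequences went with higher RNA levels in WT cells (Pearson r of -0.47 between log2 RPKM and log2 counted codons), where length enters both measures, and TE and length had an r of -0.12.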
